A study of Homo sapiens with 13 samples.

Results

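Matrix proteoglycans are secreted proteins of the matrix of bone and other connective tissue. Most carry sulfated sugar chains, and many sit between and on the collagen fibrils. The 10 genes described here were DCN, BGN, LUM, FMOD, OGN, PRELP, ASPN, VCAN, ACAN and HSPG2, taken by symbol from a raw count table of 43836 genes measured by mRNA sequencing. Each symbol matched 1 row. Of the 10, 7 had enough reads to be tested, among 17092 genes tested in all.

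The cells were hFOB 1.19, an immortalized human fetal osteoblast line, and every library came from this line. Positive controls (2 libraries) were grown in medium with 10% fetal bovine serum (FBS), and negative controls (2 libraries) were serum-starved osteoblasts in the same medium without FBS. The other groups were also serum-starved and received a compound at 1 µg/mL: RES (resveratrol, 3 libraries), POG (peonidin-3-O-glucoside, an anthocyanin, 3 libraries) or DEG (2 libraries), an abbreviation that the labels did not spell out; their treatment protocol names delphinidin-3-glucoside besides the other 2 compounds, without tying it to this group. Per the study's methods, both controls contained the DMSO vehicle. DEG replicate 3 was not analysed here. Nothing in the labels showed that the libraries of a group came from separate cultures beyond replicate wells. The spread behind the p-values, estimated over all 12 libraries together, may therefore be technical.

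The small leucine-rich proteoglycans decorin (DCN), biglycan (BGN), lumican (LUM) and fibromodulin (FMOD) bind collagen and set the diameter and spacing of its fibrils, and decorin and biglycan also bind transforming growth factor beta. Versican (VCAN) and aggrecan (ACAN) are large chondroitin sulfate proteoglycans that attach to hyaluronan, with versican common in loose and growing tissue and aggrecan in cartilage. Perlecan (HSPG2) is a heparan sulfate proteoglycan of basement membranes and of the matrix around cells. In bone, biglycan and decorin are among the abundant proteoglycans of the unmineralized matrix that osteoblasts lay down.

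Library totals lay between 38464619 and 51416358 counted reads. The pair of positive controls differed from each other more than any other pair of one group: the squared difference per gene relative to counting noise was 11.05 there and 2.07 to 2.67 elsewhere. Because the spread was estimated over all groups together, p-values and intervals that involve serum can be too small. With the spread taken from the positive and negative controls only, 5914 genes differed between them at an FDR under 0.05 (edgeR exact test), beside 7245 in the main test. Of 11 osteoblast markers, 8 passed the filter on low counts. They were COL1A1, COL1A2, SPARC, RUNX2, ALPL, BGLAP, SPP1 and PHEX. SP7, IBSP and DMP1 were below the filter, with 53 reads, 1 read and 11 reads in all libraries together. Summed osteoblast markers lay at 5264 to 5321 CPM (counts relative to the TMM-scaled size of the library) in negative controls, 5462 to 5524 in positive controls and 4751 to 5035 in the libraries given a compound. COL1A1 (2463 to 2869 CPM over all libraries), COL1A2 (1112 to 1420) and SPARC (1019 to 1177) led these sums. RUNX2 lay at 44.3 to 51.6 CPM, ALPL at 3.22 to 6.66, SPP1 at 0.955 to 2.34, BGLAP at 0.425 to 2.00 and PHEX at 0.0503 to 0.409. Markers of other cell types were partly at 0 and partly expressed. CD3E, LPL, TNMD and CNMD had 0 reads, ADIPOQ had 1 read, CDH5 had 16 and PTPRC had 23 over all libraries, whereas TEK had 22852, CNN1 16760, ACTA2 14794, MATN3 12939, SCX 4456 and SOX9 1502. Chondrocyte markers, 5 of 8 past the filter, summed to 33.2 to 46.0 CPM over all libraries, tenocyte markers, 3 of 4, to 8.10 to 12.8, adipocyte markers, 1 of 5, to 0.465 to 1.26, leukocyte markers, 3 of 5, to 0.680 to 1.98, and smooth muscle markers, 4 of 4, to 56.0 to 71.2. Summed endothelial markers, 4 of 5 past the filter and led by TEK, lay at 42.5 to 44.2 CPM in negative controls, 56.7 to 59.8 in positive controls, 53.0 to 59.8 in RES, 35.3 to 37.4 in POG and 38.2 to 38.7 in DEG, and their part in the results below was not tested.

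Transcripts of BGN and HSPG2 made up nearly all of the matrix proteoglycan signal in these osteoblasts. Levels of different genes were compared per kilobase of the longest annotated transcript. On that scale BGN averaged 269 CPM per kilobase over all libraries, rank 111 of 16961 genes, and HSPG2 59.4, rank 940. LUM averaged 7.61 CPM per kilobase, DCN 5.005 and VCAN 1.27. Biglycan was therefore the highest of the members and lumican and decorin stood near the middle of all tested genes, at the 58.54 and 50.04 percentiles. DCN has several long annotated transcripts, and with the union of its exons as length its level was 2.65 CPM per kilobase. Of the CPM summed over the members, HSPG2 took 52.4% to 58.3% and BGN 36.5% to 42.3% in the group means. Per kilobase, BGN took 75.9% to 79.3% and HSPG2 16% to 20%.

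The other members were near or at the detection limit. OGN, which encodes osteoglycin, had 0 reads in all 12 libraries, which allows a level of up to 0.0058 CPM over all of them together. ASPN, which encodes asporin, had 1 read and FMOD 5 reads in 4 libraries, so none of these 3 could be tested. ACAN had 129 reads in all and PRELP, a leucine-rich protein that anchors basement membranes to collagen, had 83, and both stayed under 1 CPM in every group mean. The limit given for OGN covers counting error only.

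The members lie in part in clusters on the genome (hg38, GENCODE release 44). DCN (chr12:91140484-91183217, minus strand) and LUM (chr12:91102629-91111494, minus strand) are neighbours separated by 28.99 kilobases with no annotated gene between them. OGN and ASPN are close on chromosome 9, where only OMD lies between them, and FMOD and PRELP lie 124.0 kilobases apart on chromosome 1. The relatives beside them were near 0 as well: OMD and OPTC had 0 reads, KERA 2, EPYC 6 and ECM2 19. BGN (chrX:153494980-153509546, plus strand) overlaps HAUS7 on the other strand, VCAN (chr5:83471618-83582303, plus strand) overlaps VCAN-AS1, and HSPG2 (chr1:21822244-21937310, minus strand) overlaps LDLRAD2 and RPL21P29. The strand setting of the counting was not given in the sources used here, so reads of these partners could not be told apart.

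The DNA just before the start of 3 members is printed because their transcripts behaved differently: VCAN rose with serum, BGN fell with it and HSPG2 was not called. The windows come from RefSeq (GRCh38.p14), end at the base before the first annotated transcript start and are written 5′ to 3′ on the gene's strand. Capitals mark a GC box, GGGCGG or its reverse complement CCGCCC, a motif bound by SP1-type factors, and overlapping boxes run together.
VCAN, chr5:83471494-83471617, plus strand: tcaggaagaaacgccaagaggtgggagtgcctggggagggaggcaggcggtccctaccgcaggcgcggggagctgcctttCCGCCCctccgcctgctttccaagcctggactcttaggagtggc
BGN, chrX:153494730-153494979, plus strand: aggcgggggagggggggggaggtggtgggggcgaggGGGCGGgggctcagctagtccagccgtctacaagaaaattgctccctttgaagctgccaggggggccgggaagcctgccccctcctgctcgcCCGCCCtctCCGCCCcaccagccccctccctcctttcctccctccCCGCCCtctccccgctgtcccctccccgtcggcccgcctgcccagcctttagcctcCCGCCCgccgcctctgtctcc
HSPG2, chr1:21937311-21937560, minus strand: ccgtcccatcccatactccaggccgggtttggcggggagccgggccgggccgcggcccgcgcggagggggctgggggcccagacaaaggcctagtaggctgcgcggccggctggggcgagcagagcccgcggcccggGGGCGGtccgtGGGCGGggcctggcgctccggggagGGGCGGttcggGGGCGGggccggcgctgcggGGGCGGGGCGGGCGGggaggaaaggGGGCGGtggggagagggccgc

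The HSPG2 window held 8 GC boxes, the BGN window 5 and the shorter VCAN window 1. Of 35116 promoter windows of 250 bases in the table, 42.6% held at least 1 GC box, 10.7% the letters TATAAA and 6.57% the AP-1 motif TGANTCA, each searched on both strands. None of the 3 printed windows held TATAAA or TGANTCA, which says only that these letters are not there. DCN and LUM were not in the table.

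Serum was compared with serum starvation first. With serum, decorin, biglycan and lumican transcripts fell and versican rose, while perlecan was not called. Of the 7 members tested, 5 were called (FDR under 0.05, edgeR exact test), 2 higher and 3 lower with serum, beside 42.4% of all genes tested. The median log2 fold change was −0.46 over the 7 members and −0.01 over all genes tested. In these bulk samples, fewer cells that express a gene and less RNA per cell cannot be told apart.

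VCAN had 30.8 and 37.3 CPM in the 2 positive controls and 12.96 and 14.05 in the negative controls. Its libraries with serum stood above every other library of the study, which lay between 10.8 and 14.05 CPM. The rise was 1.33 on the log2 scale, or 2.51-fold (SE 0.0832 on the log2 scale, edgeR FDR 4.16e-52).

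LUM, a keratan sulfate proteoglycan, had 16.1 and 13.1 CPM with serum and 29.9 and 31.9 without it. It fell by 1.08 on the log2 scale (SE 0.0892, edgeR FDR 1.92e-31), the steepest fall among the called members. DCN had 25.5 CPM in each positive control and 44.6 and 47.3 in the negative controls, a log2 fold change of −0.85 (SE 0.0609, edgeR FDR 6.49e-41). Positive and negative control libraries did not overlap for either gene.

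BGN had 533.9 and 506.8 CPM with serum and 707.8 and 726.0 without it. Its fall was shallower, 0.46 on the log2 scale (SE 0.0309, edgeR FDR 1.49e-33), but it removed the most CPM of any member: the summed members averaged 1430 ± 72.5 CPM with serum and 1695 ± 30.3 without (SD, n = 2 and 2). HSPG2 was split between the positive controls, at 771.9 and 897.8 CPM, against 878.3 and 896.9 in the negative controls. It was not called (log2 fold change −0.09, edgeR FDR 0.118, unadjusted 95% interval −0.17 to −0.01). Without positive control replicate 2 its log2 fold change was −0.20, and without replicate 1 it was 0.02. With plain library totals in place of TMM, HSPG2 was called lower (−0.13, edgeR FDR 0.0169).

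PRELP and ACAN rested on few reads. PRELP had 9 and 21 reads in the positive controls and 4 and 0 in the negative controls, and its log2 fold change of 2.65 was called (SE 1.02, edgeR FDR 0.0111). That call ended without positive control replicate 2 (edgeR FDR 0.13) or negative control replicate 2 (0.286). ACAN had 8 and 5 reads with serum and 7 and 23 without, and was not called (log2 fold change −1.41, edgeR FDR 0.0838), although it was without negative control replicate 1 (−2.01, edgeR FDR 0.0122).

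**Figure D1:**
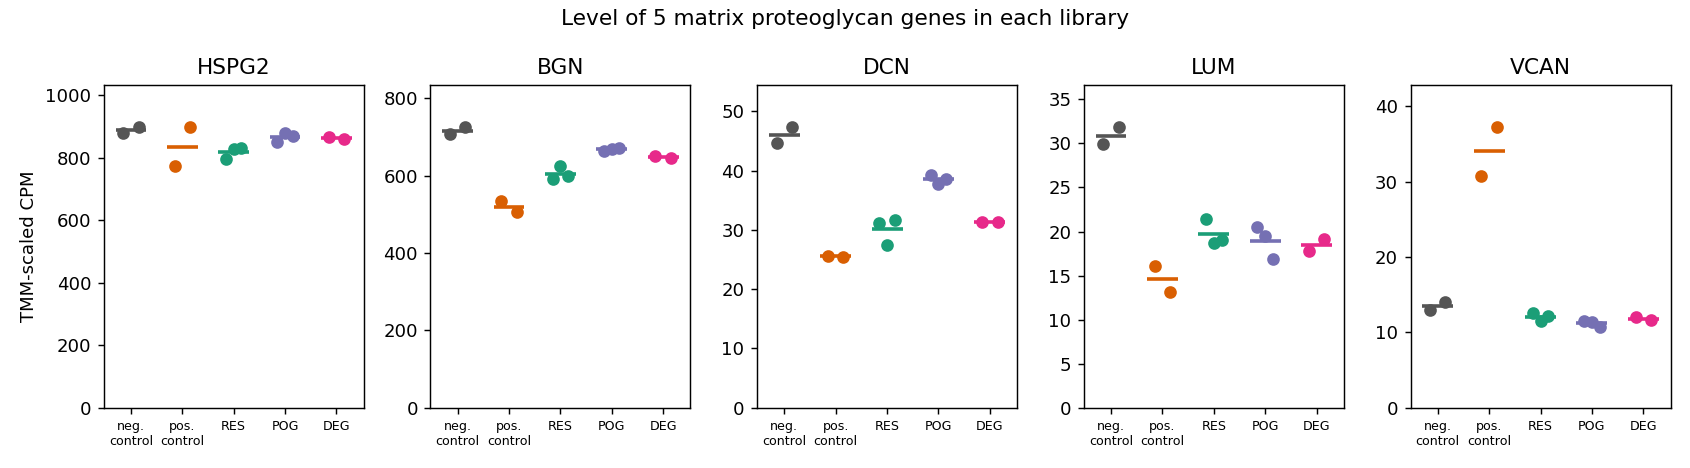
Level of the 5 matrix proteoglycan genes above 1 CPM in each library, in TMM-scaled CPM with an axis from 0 for each gene (points are libraries, lines are group means). The 2 positive controls are the highest libraries for VCAN and the lowest for BGN, DCN and LUM, and the negative controls are the highest for BGN, DCN and LUM.

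Each compound was then compared with the negative controls, to ask which members changed in serum-starved osteoblasts given RES, POG or DEG. Decorin, biglycan and lumican were called lower with each of the 3 compounds, and no member was called higher. RES called 3 of the 7 members, beside 11.2% of all genes, POG called 4, beside 14.5%, and DEG called 3, beside 9.63%. Median log2 fold changes over the 7 members lay between −0.19 (DEG) and −0.26 (POG), with RES at −0.24, beside 0.00 over all genes tested in each. With 7 members each median is the value of 1 gene. It was DCN with POG, VCAN, not called, with DEG, and ACAN, not called and at few reads, with RES. These 3 comparisons and the one with serum share the 2 negative control libraries, so their directions are not independent of each other.

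Lumican fell with each compound. LUM lay at 21.4, 18.8 and 19.0 CPM in RES, at 20.5, 19.5 and 16.9 in POG and at 17.8 and 19.2 in DEG, all under the negative controls at 29.9 and 31.9. RES changed it by −0.65 on the log2 scale (SE 0.0782, edgeR FDR 1.48e-13), POG by −0.71 (SE 0.0784, edgeR FDR 1.55e-16) and DEG by −0.74 (SE 0.0884, edgeR FDR 3.16e-14). All of these libraries lay above both positive controls.

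Decorin fell by different amounts. DCN lay at 31.1, 27.5 and 31.6 CPM in RES and at 31.4 and 31.3 in DEG, with log2 fold changes of −0.61 (SE 0.0542, edgeR FDR 2.39e-25) and −0.55 (SE 0.0605, edgeR FDR 1.12e-16). In POG it lay higher, at 39.3, 37.7 and 38.6 CPM, and fell by 0.26 on the log2 scale (SE 0.0533, edgeR FDR 8.04e-05). No library given a compound reached the lower negative control, at 44.6 CPM, and none was as low as the positive controls.

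Biglycan changed least among the called small proteoglycans. BGN lay at 591.1, 625.4 and 599.8 CPM in RES, at 665.0, 669.5 and 672.1 in POG and at 651.7 and 646.8 in DEG, and no library overlapped the negative controls. Its log2 fold changes were −0.24 with RES (SE 0.0279, edgeR FDR 7.81e-11), −0.14 with DEG (SE 0.0308, edgeR FDR 0.00282) and −0.10 with POG (SE 0.0280, edgeR FDR 0.0261). The call with POG was lost with plain library totals (edgeR FDR 0.108), with no filter on low counts (0.103) and without any 1 of the 5 libraries compared (up to 0.312). The call with DEG was lost without negative control replicate 2 (edgeR FDR 0.119) or DEG replicate 2 (0.0727).

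Versican, which had risen with serum, was called lower with POG and not with RES or DEG. VCAN lay at 11.5, 11.4 and 10.8 CPM in POG, under the negative controls at 12.96 and 14.05 (log2 fold change −0.27, SE 0.0842, edgeR FDR 0.0182). The call was lost without negative control replicate 2 (edgeR FDR 0.288) or POG replicate 3 (0.0884). In RES it lay at 12.6, 11.5 and 12.2 CPM (log2 fold change −0.16, edgeR FDR 0.253, 95% interval −0.33 to 0.01) and in DEG at 12.1 and 11.6 (log2 fold change −0.19, edgeR FDR 0.235, 95% interval −0.38 to 0.00). The difference between the compounds was not called for VCAN in any of the 3 pairs.

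Perlecan stayed within a narrow range. HSPG2 lay at 794.2, 828.7 and 831.2 CPM in RES, at 850.3, 877.2 and 867.7 in POG and at 867.5 and 860.9 in DEG. No compound called it by the exact test: the log2 fold change was −0.12 with RES (edgeR FDR 0.0502, 95% interval −0.19 to −0.04), −0.04 with POG (edgeR FDR 0.659, 95% interval −0.11 to 0.04) and −0.04 with DEG (edgeR FDR 0.723, 95% interval −0.12 to 0.04). The value with RES lay at the threshold and passed it with edgeR's quasi-likelihood test (edgeR FDR 0.0363) and with DESeq2 size factors (0.0491). It also passed with no filter on low counts (edgeR FDR 0.0401) and with dispersion from the groups compared only (2.2e-05). Every library given a compound lay below both negative controls, at 878.3 and 896.9 CPM, by as little as from 877.2 in POG. With only 2 negative controls this separation says little, and VCAN showed it with RES and DEG without being called. The share of all genes tested that were separated in this way was not computed. ACAN had 16, 18 and 9 reads in RES, 6, 3 and 11 in POG and 18 and 5 in DEG, and PRELP had 3, 20 and 6 in RES, 7, 3 and 5 in POG and 0 and 5 in DEG. Neither was called with a compound, although ACAN was with POG without negative control replicate 1 (log2 fold change −1.96, edgeR FDR 0.0249) and PRELP was with RES without RES replicate 1 (2.44, edgeR FDR 0.0427).

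**Figure D2:**
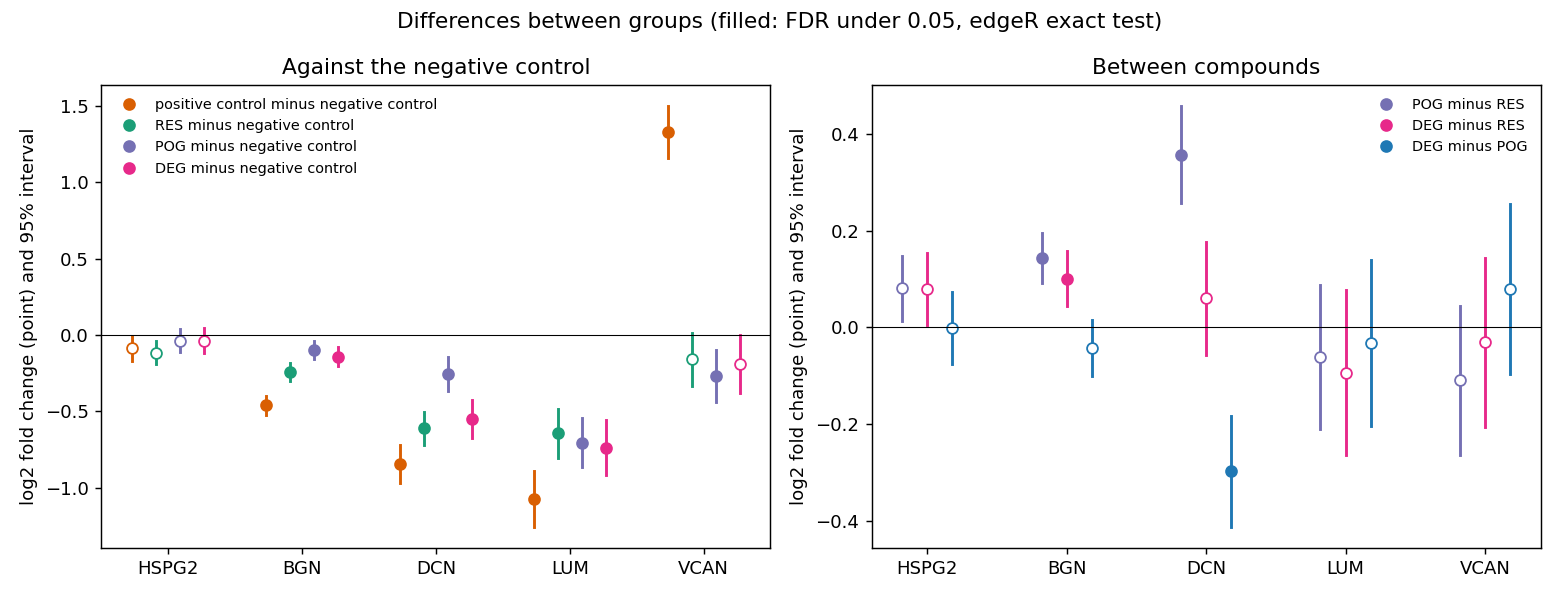
Log2 fold changes of the 5 members above 1 CPM against the negative control (left) and between compounds (right), with unadjusted 95% intervals; filled points passed an FDR under 0.05 in the edgeR exact test. DCN, BGN and LUM lie below 0 with serum and with each compound, VCAN lies at 1.33 with serum, POG differs from RES in DCN and BGN, DEG from POG in DCN and DEG from RES in BGN, and the LUM intervals of all 3 pairs of compounds include 0. The 2 panels have different vertical scales.

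The compounds were compared with each other at the same dose, in 3 pairs. POG and RES differed in decorin and biglycan, both higher with POG, so 2 of the 7 members were called beside 27.9% of all genes. DCN was 0.36 higher on the log2 scale (SE 0.0491, edgeR FDR 4.03e-11), with POG libraries at 37.7 CPM or more and RES libraries at 31.6 or less. BGN was 0.14 higher (SE 0.0251, edgeR FDR 2.45e-05), with no overlap between the libraries. RES is a stilbene polyphenol and POG an anthocyanin glucoside.

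DEG differed from POG in decorin, which was lower with DEG by 0.30 on the log2 scale (SE 0.0559, edgeR FDR 0.000154). It was the 1 member called of 7 in a comparison that called 1.05% of all genes. The call remained without any 1 library of the 5, at edgeR FDR values of at most 0.0456. DEG differed from RES in biglycan, 0.10 higher with DEG (SE 0.0281, edgeR FDR 0.018), again 1 of 7 members, beside 21.2% of all genes. That call was lost with no filter on low counts (edgeR FDR 0.0604) and without either DEG library, RES replicate 1 or RES replicate 3 (0.0791 to 0.167).

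Where the compounds were not called different, the intervals still allow a difference. For LUM the log2 difference was −0.06 for POG against RES (95% interval −0.21 to 0.09), −0.09 for DEG against RES (−0.26 to 0.08) and −0.03 for DEG against POG (−0.20 to 0.14). For DCN, DEG against RES gave 0.06 (95% interval −0.06 to 0.18). For HSPG2 the differences were 0.08 for POG against RES (95% interval 0.01 to 0.15), 0.08 for DEG against RES (0.00 to 0.15) and 0.00 for DEG against POG (−0.08 to 0.07), with edgeR FDR values of 0.101, 0.187 and 1. A p that misses the threshold does not show that the compounds act alike.

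The neighbours DCN and LUM were not in the same ratio in every group. Negative controls held 1.49 DCN reads for each LUM read in both libraries, and RES libraries held 1.45, 1.46 and 1.66. POG libraries held 1.92, 1.94 and 2.29, above every RES, DEG and negative control library. DEG libraries held 1.76 and 1.63, and the positive controls 1.59 and 1.94. The ratio was chosen for display with the values of these genes known and is given as a description, with no test.

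**Figure D3:**
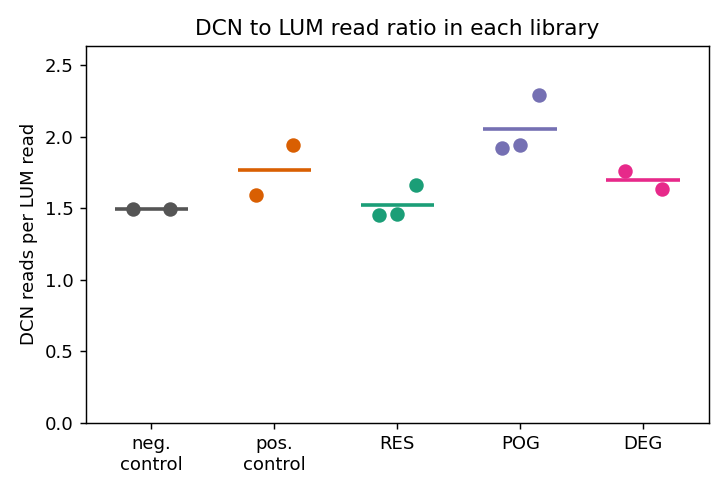
DCN reads per LUM read in each library (points; lines are group means, and the axis starts at 0). The 3 POG libraries lie between 1.92 and 2.29 and the 2 negative controls at 1.49.

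Serum-fed osteoblasts were also set beside each compound group. Biglycan, decorin and lumican were lower with serum than with any compound and versican was higher. Members called were 4 of 7 against RES, beside 45.7% of all genes, 5 of 7 against POG, beside 47.9%, and 5 of 7 against DEG, beside 43.4%. VCAN was higher with serum by 1.49 on the log2 scale against RES (SE 0.0737, edgeR FDR 2.63e-82), 1.6 against POG (SE 0.0742, edgeR FDR 3.19e-94) and 1.52 against DEG (SE 0.0848, edgeR FDR 1.47e-66). LUM was lower by amounts between 0.34 and 0.43, and its difference from DEG was lost without positive control replicate 2 (edgeR FDR 0.0663). The fifth call was PRELP, higher than in POG (edgeR FDR 0.0349) and DEG (0.0199), which ended without positive control replicate 2 (0.588 and 0.197).

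Ordered by group mean, DCN ran from 46.0 ± 1.94 CPM in negative controls (SD, n = 2) through 38.5 ± 0.755 in POG (SD, n = 3), 31.3 ± 0.0281 in DEG (SD, n = 2) and 30.1 ± 2.28 in RES (SD, n = 3) to 25.5 ± 0.0185 in positive controls (SD, n = 2). Each step was called except that between DEG and RES. BGN ran in the same order, from 716.9 ± 12.9 in negative controls (SD, n = 2) through 668.9 ± 3.61 in POG (SD, n = 3), 649.2 ± 3.45 in DEG (SD, n = 2) and 605.4 ± 17.9 in RES (SD, n = 3) to 520.4 ± 19.1 in positive controls (SD, n = 2), and here the step between POG and DEG was not called. For LUM the means were 30.9 ± 1.38 in negative controls (SD, n = 2), 19.7 ± 1.48 in RES (SD, n = 3), 18.9 ± 1.87 in POG (SD, n = 3), 18.5 ± 0.998 in DEG (SD, n = 2) and 14.6 ± 2.10 in positive controls (SD, n = 2). The 3 compound groups were neighbours in this order that did not differ by the test.

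VCAN had the opposite end points, with 34.0 ± 4.56 CPM in positive controls (SD, n = 2) and 13.5 ± 0.770 CPM in the starved controls (SD, n = 2), then 12.1 ± 0.576 in RES (SD, n = 3), 11.8 ± 0.326 in DEG (SD, n = 2) and 11.2 ± 0.371 in POG (SD, n = 3). Below the first step, no neighbours in this order were called different. For HSPG2, from 887.6 ± 13.2 in negative controls (SD, n = 2) to 818.1 ± 20.7 in RES (SD, n = 3), none of the 10 pairs of groups was called by the edgeR exact test. At an unadjusted p under 0.05 it passed in RES against negative controls (edgeR FDR 0.0502) and in POG against RES (0.101), and other settings called it in some pairs. The positive control libraries decided its place against the compounds. Without positive control replicate 2, the log2 fold change of HSPG2 with serum was −0.08 against RES, −0.16 against POG and −0.16 against DEG. Without replicate 1 it was 0.14 against RES, 0.05 against POG and 0.06 against DEG. With plain library totals HSPG2 was called lower with serum than with POG (edgeR FDR 0.0166) and DEG (0.0459).

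Genes with the most similar pattern over the 12 libraries were found by the root-mean-square difference of centred log2 CPM, as a description. For DCN they were FIBCD1 (0.102), ITGA11 (0.113), a collagen receptor subunit, and NXPH4 (0.115). For LUM they were COL3A1 (0.117), a fibrillar collagen chain, ASS1 (0.142) and AZIN2 (0.147), and for VCAN they were VEGFA (0.101), the vascular growth factor, FOSL1 (0.125) and CLDN11 (0.125). ACAN and PRELP, at few reads, had no close match (0.348 and 0.729 at best).

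The genes that build, sulfate, cut or bind proteoglycans were described by 140 genes in 11 lists, of which 113 passed the filter. Against negative controls, serum called 39 higher and 32 lower. RES called 11 higher and 19 lower, POG 6 higher and 32 lower, and DEG 1 higher and 24 lower. Together these were 62.8%, 26.5%, 33.6% and 22.1% of the listed genes tested, beside 42.4%, 11.2%, 14.5% and 9.63% of all genes tested, with medians of the log2 fold change between −0.04 and 0.01. Over all genes tested, serum called 3665 higher and 3580 lower, RES 844 and 1062, POG 1014 and 1464, and DEG 602 and 1044. The counts for single lists given next are to be read against these shares. With plain library totals the split of listed genes for RES was 15 higher and 15 lower. Without negative control replicate 2 the RES count was 19 of 113.

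With serum, the enzymes that build the linker between the core protein and its sugar chains rose most uniformly: 6 of 7 were called higher and none lower, or 4 and none with plain library totals. XYLT1, which starts the linker by adding xylose, went from 20.4 ± 0.315 to 28.9 ± 3.20 CPM (SD, n = 2 in each; log2 fold change 0.50, edgeR FDR 3.45e-10), and PXYLP1, a xylose phosphatase, from 13.7 ± 0.296 to 17.7 ± 1.80 (0.37, edgeR FDR 0.000166). Of 10 genes for sugar nucleotide and sulfate supply, 4 rose and none fell, among them UGP2, which makes UDP-glucose (0.33, edgeR FDR 1.25e-11), and PAPSS2, which makes the sulfate donor (0.24, edgeR FDR 4.21e-06). With plain library totals 1 of these 10 was called lower.

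Chain-modifying enzymes moved both ways with serum. Of 15 chondroitin and dermatan sulfate enzymes 3 rose and 7 fell, with CHST7, a sulfotransferase, at 0.65 (edgeR FDR 5.5e-06) and UST, a uronyl sulfotransferase, at −0.44 (8.31e-06). Of 15 heparan sulfate enzymes 4 rose and 3 fell. SULF1, an extracellular sulfatase that trims heparan sulfate, fell from 24.7 ± 1.59 to 12.3 ± 0.783 CPM (SD, n = 2 in each; log2 fold change −1.01, edgeR FDR 4.32e-34), and HPSE, the heparanase, fell from 33.9 ± 0.0412 to 19.9 ± 0.00458 (−0.77, edgeR FDR 1.24e-32). Of 8 keratan sulfate enzymes 1 rose and 3 fell, with ST3GAL1 at 0.46 (edgeR FDR 1.98e-17) and CHST6 at −0.44 (0.00122). The call of CHST6 was lost without positive control replicate 1 (edgeR FDR 0.115).

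Other proteoglycans and their cutters also changed with serum. In the list of other extracellular proteoglycans and leucine-rich matrix proteins 5 of 18 rose and 4 fell. SMOC1, a secreted matrix protein listed with them, fell from 95.8 ± 5.64 to 25.7 ± 0.68 CPM (SD, n = 2 in each; log2 fold change −1.90, edgeR FDR 1.79e-291). ESM1, a secreted dermatan sulfate proteoglycan, stood at 5.67 (edgeR FDR 1.68e-292). Of 15 cell surface proteoglycans 7 rose and 5 fell, including GPC1, a glypican, at −0.50 (edgeR FDR 8.46e-29) and CSPG5 at −1.30 (1.03e-10). Of 11 proteases 4 rose and 5 fell: ADAMTS1, which can cut versican and aggrecan, went from 53.9 ± 1.01 to 104.1 ± 1.44 CPM (SD, n = 2 in each; log2 fold change 0.95, edgeR FDR 8.91e-90), and MMP3 fell by 1.09 (edgeR FDR 1.33e-20).

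Partners of the proteoglycans were mixed. Of 5 link proteins and hyaluronan receptors 2 rose and 3 fell, with TNFAIP6, which binds hyaluronan, at −1.04 (edgeR FDR 2.88e-49) and HAPLN1, the cartilage link protein, at 1.51 (0.00112), whose call was lost without negative control replicate 1 (edgeR FDR 0.0737). Of 9 growth factors bound by small proteoglycans 3 rose and 2 fell, with FGF2 at 0.62 (edgeR FDR 2.76e-47) and BMP4 at −0.63 (7.34e-12).

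With the compounds, most listed genes that were called under TMM fell. Such splits depend on the scaling. Of all genes called with POG, 40.9% were higher under TMM and 56% with plain library totals, and with DEG 36.6% and 49.3%. SULF1 fell with POG (log2 fold change −0.63, edgeR FDR 1.57e-16) and DEG (−0.58, edgeR FDR 9.18e-11), from 24.7 ± 1.59 CPM in negative controls (SD, n = 2) to 15.9 ± 0.797 in POG (SD, n = 3) and 16.5 ± 0.602 in DEG (SD, n = 2). Other heparan sulfate enzymes named by the rule were NDST1 with POG (−0.21, edgeR FDR 4.89e-06), HPSE with RES (−0.25, edgeR FDR 0.000325), HS3ST3B1 with RES (−0.21, edgeR FDR 0.0378) and EXT1 with DEG (−0.15, edgeR FDR 0.00289). The HS3ST3B1 call was lost with the quasi-likelihood test (edgeR FDR 0.0566) and DESeq2 (adjusted p 0.0706). Plain library totals (edgeR FDR 0.085) and no filter on low counts (0.0931) lost it too, as did leaving out either negative control library or RES replicate 2 or 3. The EXT1 call was lost without negative control replicate 2 (log2 fold change −0.13) or DEG replicate 2 (−0.11). Of the 15 heparan sulfate enzymes, 3 fell with each compound and 1 rose, with RES.

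Chondroitin and dermatan sulfate enzymes were lower with POG and DEG in part. Of 15, POG lowered 5 and raised 1, DEG lowered 3 and raised none, and RES raised 2 and lowered none. CSGALNACT1, which starts the chondroitin chain, fell by 0.33 with POG (edgeR FDR 4.64e-06) and by 0.41 with DEG (3.3e-07), and DSEL, a dermatan sulfate epimerase relative, fell by 0.34 (3.04e-09) and 0.29 (2.95e-05). CHPF and CHST11 rose with RES by 0.15 and 0.21 (edgeR FDR 0.00139 and 0.00776), and both calls were lost without negative control replicate 1 (0.0608 and 0.306). In the direct comparison, 6 of these 15 were lower in POG than in RES and none was higher, beside 27.9% of all genes called in either direction, and 5 were lower in DEG than in RES, beside 21.2%.

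The linker and supply genes moved little. Of 7 linker enzymes RES lowered 1, XYLT1 (−0.20, edgeR FDR 0.0434), and this call ended without either negative control library. It was also lost with the quasi-likelihood test (edgeR FDR 0.0616) and DESeq2 (adjusted p 0.0734). Plain library totals (edgeR FDR 0.0988) and no filter on low counts (0.0691) lost it as well. POG lowered XYLT1 (−0.26, edgeR FDR 0.00341, lost without negative control replicate 2 at 0.0788) and raised 2, with FAM20B, the xylose kinase, at 0.21 (4.13e-05), and DEG called none. UXS1, which makes UDP-xylose, fell with POG (−0.20, edgeR FDR 9.15e-05) and DEG (−0.25, edgeR FDR 9.74e-06), and PAPSS2 rose with POG (0.15, edgeR FDR 0.0104), which did not hold without negative control replicate 1 (0.233). Of 8 keratan sulfate enzymes POG lowered 4, with ST3GAL1 at −0.20 (edgeR FDR 0.0011) and B3GNT2 at −0.22 (0.00192, lost without negative control replicate 2 at 0.144), DEG lowered 2, with CHST2 at −0.25 (6.73e-05) and ST3GAL2 at −0.17 (0.00364, lost without negative control replicate 1 at 0.203), and RES called none.

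Some proteases and some genes listed with the other extracellular proteoglycans fell with each compound. HTRA1, a secreted serine protease, went from 127.8 ± 0.698 CPM in negative controls (SD, n = 2) to 94.0 ± 1.92 in RES (SD, n = 3), 103.8 ± 2.41 in POG (SD, n = 3) and 97.0 ± 1.03 in DEG (SD, n = 2), with log2 fold changes of −0.44 (edgeR FDR 4.12e-28), −0.30 (3.1e-13) and −0.40 (2.42e-18). MMP3, a matrix metalloproteinase, showed larger falls: it stood at 12.2 ± 0.506 CPM in negative controls (SD, n = 2), 5.50 ± 0.275 in RES (SD, n = 3), 4.99 ± 0.64 in POG (SD, n = 3) and 4.71 ± 0.359 in DEG (SD, n = 2), with edgeR FDR values of 1.33e-26, 2.7e-33 and 3.31e-28. Of the 11 proteases, 4 fell with RES and 1 rose, 5 fell with POG and 4 with DEG. Of the 18 other extracellular proteoglycans and leucine-rich proteins, RES raised 3 and lowered 5, POG lowered 4 and DEG lowered 3. COL15A1, a basement membrane collagen with chondroitin sulfate chains, fell with POG (−0.76, edgeR FDR 7.54e-05) and DEG (−1.13, edgeR FDR 2.87e-07). COL12A1 fell with POG (−0.57, edgeR FDR 1.82e-22) and RES (−0.48, edgeR FDR 1.64e-15). Its mean was lower in DEG as well, at 61.3 CPM beside 80.7 in negative controls. SMOC1 fell with DEG (−0.56, edgeR FDR 9.07e-28) and RES (−0.30, edgeR FDR 8.49e-10). The SMOC1 mean was lower in POG too, at 70.6 CPM beside 95.8 in negative controls. COL9A2 rose with RES (0.48, edgeR FDR 4.24e-05). ESM1 was called higher with RES (0.73, edgeR FDR 0.0203), but not by the quasi-likelihood test (edgeR FDR 0.109) or without negative control replicate 1 (0.74).

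Cell surface proteoglycans that were called with POG and DEG mostly fell. NRP1, a co-receptor for vascular growth factors, fell with POG (−0.46, edgeR FDR 6.48e-35) and DEG (−0.43, edgeR FDR 5.89e-24). With RES, NRP1 was called lower as well (−0.23, edgeR FDR 9.29e-09). TGFBR3, the betaglycan that presents transforming growth factor beta, fell with POG (−0.50, edgeR FDR 4.84e-12) and DEG (−0.29, edgeR FDR 0.00171). The DEG call of TGFBR3 was lost without negative control replicate 2 (edgeR FDR 0.0861). RES raised 4 and lowered 5 of these 15, with CD74 at 0.51 (edgeR FDR 0.00114, lost without negative control replicate 2 at 0.163) and GPC5 at −0.96 (0.0175, lost by the quasi-likelihood test at 0.0505), POG raised 1 and lowered 5, and DEG lowered 5.

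Growth factors that decorin and its relatives bind fell with POG and DEG in part and were not called with RES. TGFB2 fell with POG (−0.59, edgeR FDR 1.8e-16) and DEG (−0.26, edgeR FDR 0.00553, not held without negative control replicate 2 at 0.11), and FGF2 fell with POG (−0.42, edgeR FDR 4.96e-25) and DEG (−0.32, edgeR FDR 8.63e-12). In all, 3 of 9 fell with POG, 2 with DEG and 0 with RES. TNFAIP6 fell with POG (−0.28, edgeR FDR 8.78e-05) and DEG (−0.34, edgeR FDR 2.25e-05), while HAPLN3 fell with RES (−0.22, edgeR FDR 0.0024, lost without negative control replicate 2 at 0.26). Of the 5 link proteins and hyaluronan receptors, RES lowered 1, and POG and DEG each raised 1 and lowered 1. HAPLN2 rose with POG (0.56, edgeR FDR 0.0403) and DEG (0.63, edgeR FDR 0.0464), and both calls were lost without either negative control library. Both were also lost with the quasi-likelihood test (edgeR FDR 0.0664 and 0.0818) and DESeq2 (adjusted p 0.0791 and 0.0914).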

How the data were processed

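The authors deposited raw read counts per gene, with 1 column for each of 12 libraries; per their methods and labels, reads were aligned to hg38 with STAR (BWA MEM was also named) and counted on Ensembl genes with featureCounts. Versions, annotation release, strand setting and handling of multi-mapped reads were not given in the sources used here. Of 13 labelled samples, DEG replicate 3 was not analysed here, so the design, written for all samples, was run on 12 libraries.

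From these counts, filterByExpr by group (minimum count 10) kept 17092 of 43836 genes, holding 99.967% of the reads. Libraries were scaled by TMM and 10 pairs of groups were compared by the exact test of edgeR 4.0.16 (R 4.3.3), the test the study names, with dispersions from all 12 libraries and Benjamini-Hochberg adjustment over all genes tested (called at FDR under 0.05). Standard errors and unadjusted 95% intervals came from the quasi-likelihood fit. The test was checked on simulated counts. Replicate numbers follow accession order. Lengths and coordinates came from GENCODE release 44. The members, lists and markers were chosen with earlier results of these data known. Besides the members, at most 2 genes per list and comparison were named: the largest called changes whose libraries did not overlap and whose mean reached 1 CPM in a group compared, and the 3 genes nearest in pattern to each member whose group means spanned at least 0.5 on the log2 scale. Alternatives were other tests (quasi-likelihood, DESeq2 1.42.0), scalings, filters, dispersions, an FDR of 0.01 and leaving out each library.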

Additional observations from a re-analysis of the deposited data

How the results depend on the processing

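Over 56 results for single members and 704 alternative values of them, 639 kept direction and side of the threshold, 33 lost their call, 16 gained one and 16 turned direction. Results of ACAN and PRELP that were not called were left out of the 56. The exceptions were those against the negative controls with an unadjusted p under 0.05 in the exact test. Over all tested members, 19 alternative values passed the threshold where the main test did not. None of those that turned had been called, and HSPG2 in positive control against RES was called once turned. Of 128 alternative counts of members called, 118 stayed within 1.5 times the reported count. DEG against RES called 1 member, and 0 with no filter on low counts or at an FDR under 0.01, 2 with dispersion from the groups compared only, and 0 to 1 when a library was left out. POG against negative control called 4 members, 2 at an FDR under 0.01, and 2 to 4 when a library was left out. HSPG2 in DEG against POG turned from −0.00 to 0.0006092 with the DESeq2 Wald test and 0.0006099 with DESeq2 size factors, and spanned −0.01374 to 0.008647 when a library was left out. HSPG2 in positive control against RES turned to −0.04082 with plain library totals. Leaving out a library also turned HSPG2 in positive control against RES (−0.07919 to 0.1368), POG (−0.1618 to 0.05414), DEG (−0.1598 to 0.0562) and negative control (−0.1963 to 0.01966), LUM in POG against RES (−0.1209 to 0.01705), LUM in DEG against POG (−0.1102 to 0.02774), VCAN in DEG against RES (−0.067 to 0.0009411) and DCN in DEG against RES (−0.001526 to 0.09813), all on the log2 scale. The cause was not tested. Of 857 alternative values for the 69 named results of listed genes, 63 lost the call and 0 turned. PRELP in positive control against POG was lost with the quasi-likelihood test (edgeR FDR 0.0845) and DESeq2 (adjusted p 0.145). A library left out from a pair leaves 1 sample, assumed to vary like the other groups. The positive controls varied more than those, so FDR values that rest on 1 positive control can be too small. No paired analysis was possible because the labels gave no replicate numbers shared between groups.

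PRELP and ACAN lie below 1 CPM and OGN, ASPN and FMOD at or near 0, so differences in these 5 were hardly detectable at this depth. Groups held 2 or 3 libraries. Plain library totals shifted all log2 fold changes by at most 0.07 in size.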
